A study of Mus musculus with 12 samples.

Results

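The genes described here encode the proteins of the cytosolic ribosome. They were taken as the rows of the count table named Rps or Rpl with a number, Rplp with a number, or Rpsa, with at least 10 counts in at least 3 libraries. Of 85 rows with such names, 81 met that minimum, among 24982 genes in the table. They encode 32 proteins of the small subunit, 46 of the large subunit and the 3 proteins of the stalk. The other 4, Rpl26, Rpl39l, Rps4l and Rpl10l, had 0 counts in every library. Just inside the minimum, Rpl30 had 3 to 16 counts per library.

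Messenger RNA was sequenced from cultured mouse B-ALL cells, a leukaemia of immature B cells. The TKO cells lacked Bax, Bak and Mcl-1 (Bax-/-,Bak-/-,Mcl-1-/-) and were grown for 24 h in low-glucose medium or in regular medium. The DKO cells lacked Bax and Bak (Bax-/-,Bak-/-) and were grown in the same media for the same time. By these labels all 4 groups were deleted for Bax and Bak, the effectors of mitochondrial apoptosis, and each held 3 libraries. The title of the study links MCL-1, an anti-apoptotic BCL-2 family protein, with the oxidation of fatty acids. Setting TKO against DKO cells asks what differed when it was missing as well. The labels give no second line of either genotype, so the genotype and the line cannot be told apart. Whether replicates were grown as separate cultures is not stated, so p-values measure the spread between these libraries, which may be technical.

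Cytosolic ribosomes carry out most of a cell's protein synthesis. The small subunit binds the mRNA and reads its codons, the large subunit joins the amino acids, and the stalk of Rplp0, Rplp1 and Rplp2 recruits the factors that drive elongation. Ribosomal protein mRNAs of vertebrates typically begin with a run of pyrimidines, the terminal oligopyrimidine tract, through which their translation follows the growth kinase mTOR and the RNA-binding protein Larp1.

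The start regions of members that behaved in contrasting ways are shown because a pyrimidine run at the start is the sequence feature for which these genes are known. Each window runs from 25 bases before to 25 bases after the annotated start, written 5′ to 3′, and the capitals mark its longest run of C and T, or the first where runs tie, as in Rpl10a. The sequences are those of RefSeq for GRCm38.p6. The first 4 genes had a response to low glucose that was lower in TKO than in DKO cells, by the test of the interaction given further on. The next 3 were called in no comparison.
Rplp2: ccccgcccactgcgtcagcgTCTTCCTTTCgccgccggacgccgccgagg
Rpl13a: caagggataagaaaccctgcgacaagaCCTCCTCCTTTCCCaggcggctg
Rps28: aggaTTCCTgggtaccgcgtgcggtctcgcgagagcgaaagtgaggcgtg
Rpl10a: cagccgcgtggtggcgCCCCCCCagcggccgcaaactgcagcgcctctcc
Rpl35: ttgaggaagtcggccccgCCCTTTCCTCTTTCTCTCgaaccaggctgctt
Rpl14: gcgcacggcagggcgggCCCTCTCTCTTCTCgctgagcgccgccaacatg
Rpl28: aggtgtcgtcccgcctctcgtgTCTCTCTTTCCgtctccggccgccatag
The windows lie at chr7:141447626-141447675 on the plus strand for Rplp2, chr7:45128721-45128770 on the minus strand for Rpl13a, chr17:33824538-33824587 on the minus strand for Rps28 and chr17:28328446-28328495 on the plus strand for Rpl10a. The windows of the uncalled genes lie at chr2:39005107-39005156 on the minus strand for Rpl35, chr9:120571492-120571541 on the plus strand for Rpl14 and chr7:4792940-4792989 on the plus strand for Rpl28. RefSeq promoters were matched for 61 of the 81 members. A run of at least 8 C or T letters lay within 25 bases of the start in 30 of these 61 (49.2%), against 19.4% of all 27025 promoters. Within 50 bases of the start it was found in 49 (80.3%), against 35.7% of all. Letters spelling CCGGAAG on either strand, the core of sites bound by ETS factors such as Gabpa, were found in the promoters of 23 members (37.7%) and in 9.12% of all. TATAAA was found in 7 (11.5%) and in 14.2% of all, and AAGATGGC, a YY1-type motif, in 5 (8.2%) and in 2.88% of all. These matches describe the letters only. The run within 25 bases was present in 14 of 36 members that rose in low glucose in DKO cells (38.9%) and in 16 of the other 25 (64%). It was present in 5 of 11 members with a lower response in TKO cells (45.5%) and in 25 of the other 50 (50%).

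Libraries held 22190736 to 42140396 gene counts in TKO cells in low glucose and 25908668 to 30874107 in TKO cells in regular medium. They held 35758895 to 46925274 in DKO cells in low glucose and 45914440 to 56260867 in DKO cells in regular medium. Mcl1 stood at 0.17 to 0.475 CPM (gene counts scaled by library total and TMM factor) in TKO libraries, against 237 to 273 CPM in DKO libraries, in the direction of the labels. Reads of the other deleted genes were present in every library: Bax stood at 5.62 to 7.92 CPM in TKO and 16.9 to 23 CPM in DKO libraries, and Bak1 at 4.07 to 5.73 CPM in TKO and 15.9 to 20.2 CPM in DKO libraries. Gene totals do not show whether these reads come from the deleted parts, so they do not check those labels. All 10 early B-cell markers tested were present at 1 CPM or more in every library, and T-cell, erythroid and stromal markers were near 0. Myeloid markers summed to 0.472 to 1.3 CPM in TKO libraries and 3.63 to 4.51 CPM in DKO libraries, and their part in the results was not tested. Within groups, TKO libraries varied more than DKO libraries. Replicate 2 of the TKO cells was the lowest of its group in both media for 36 of the 81 members and the highest in both for 22. Replicate 3 of the TKO cells was the highest in both for 33, and replicate 1 of the DKO cells the lowest in both for 22.

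As a share of all gene counts, the 81 genes were highest in DKO cells in low glucose. The share was 6.69%, 6.77% and 6.98% in the TKO libraries in low glucose and 6.47%, 6.05% and 6.57% in the TKO libraries in regular medium. It was 8.08%, 8.34% and 8.27% in the DKO libraries in low glucose and 6.86%, 6.72% and 6.86% in the DKO libraries in regular medium. The libraries of compared groups did not overlap. The mean share was 1.07 times as high in low glucose as in regular medium in TKO cells, and 1.21 times as high in DKO cells. In low glucose, the TKO mean was 0.828 of the DKO mean, and in regular medium 0.934.

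DKO cells in low glucose were also the highest group within each class of protein. Small subunit genes took 2.96% ± 0.125 of the counts in TKO cells in low glucose and 2.78% ± 0.177 in TKO cells in regular medium, where the libraries overlapped. They took 3.63% ± 0.0721 in DKO cells in low glucose and 2.99% ± 0.0281 in DKO cells in regular medium (SD, n = 3), with no overlap. The stalk genes took 0.303% ± 0.00765 in TKO cells in low glucose and 0.307% ± 0.0249 in regular medium (SD, n = 3), with overlapping libraries. In DKO cells the stalk genes took 0.421% ± 0.0136 in low glucose and 0.332% ± 0.00731 in regular medium (SD, n = 3), with no overlap. Genes of the mitochondrial ribosome went the other way, with 0.302% of counts in low glucose and 0.344% in regular medium in TKO cells. They took 0.276% in low glucose and 0.333% in regular medium in DKO cells. Reads of Rn45s, the precursor of ribosomal RNA, made up 1.99% to 4.62% of the total and its groups overlapped. In bulk libraries more cells with these mRNAs and more of the mRNA per cell cannot be told apart.

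**Figure D1:**
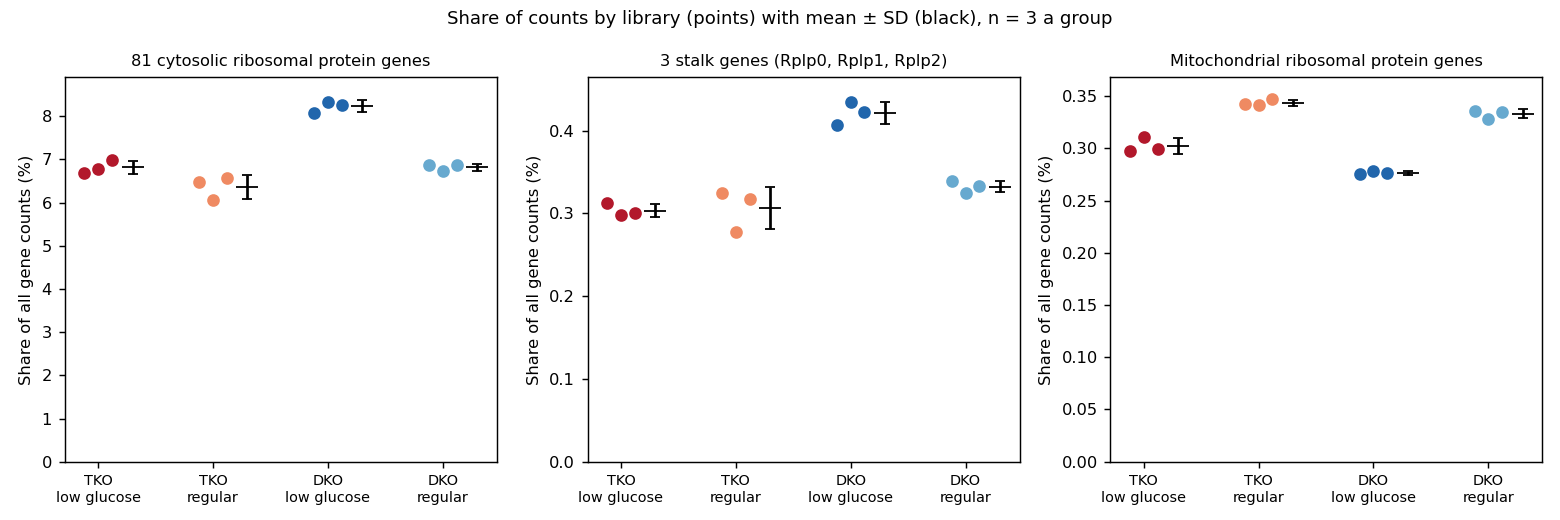
Share of all gene counts (%) by library for the 81 cytosolic ribosomal protein genes, the 3 stalk genes and the mitochondrial ribosomal protein genes, with mean ± SD in black (n = 3 a group). DKO libraries in low glucose lie above the other groups in the first 2 panels, at 8.08% to 8.34% for the 81 genes, and lowest in the last panel.

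Levels per transcript length, in the authors' TPM (counts scaled by transcript length and library total), spanned from 1.15 for Rpl30 to 12057 for Rps29 as means over all libraries. Rps29, a small zinc-binding protein of the small subunit, stood at 10908 ± 942 TPM in TKO cells in low glucose and 11304 ± 1078 TPM in TKO cells in regular medium. It stood at 14198 ± 262 TPM in DKO cells in low glucose and 11818 ± 267 TPM in DKO cells in regular medium (SD, n = 3). Rpl32 of the large subunit and Rps26 of the small subunit followed, at 10299 and 9968 TPM over all libraries. In TKO cells in low glucose Rps26 averaged 11205 ± 1292 TPM (SD, n = 3), and the ranges of Rps29 and Rps26 given by their SDs overlapped. In DKO cells in low glucose the order was clear of the SDs, with Rpl32 at 12220 ± 297 and Rps26 at 9803 ± 259 TPM (SD, n = 3).

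At the low end, 4 genes lay far below the others, with Rpl34 at 7.5, Rpl3l at 5.62, Rps27 at 5.46 and Rpl30 at 1.15 TPM. The next gene up, Rpl7l1, had 110 TPM. Rpl34, Rps27 and Rpl30 encode standard proteins of the ribosome, as does Rpl26, which was listed at 0. How reads shared with near-identical gene copies were counted is not given in the sources used here, and the levels of such genes are therefore uncertain. Rows named as ribosomal protein pseudogenes numbered 7 and held 0.0144% to 0.0183% of counts. Members took 27.4% of TPM in TKO cells in low glucose and 26% in TKO cells in regular medium, against 31.7% and 27.3% in DKO cells in the same media. Per length, the small and large subunit genes were near balance, with a ratio of summed TPM between 0.967 and 1.02 in every library.

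**Figure D2:**
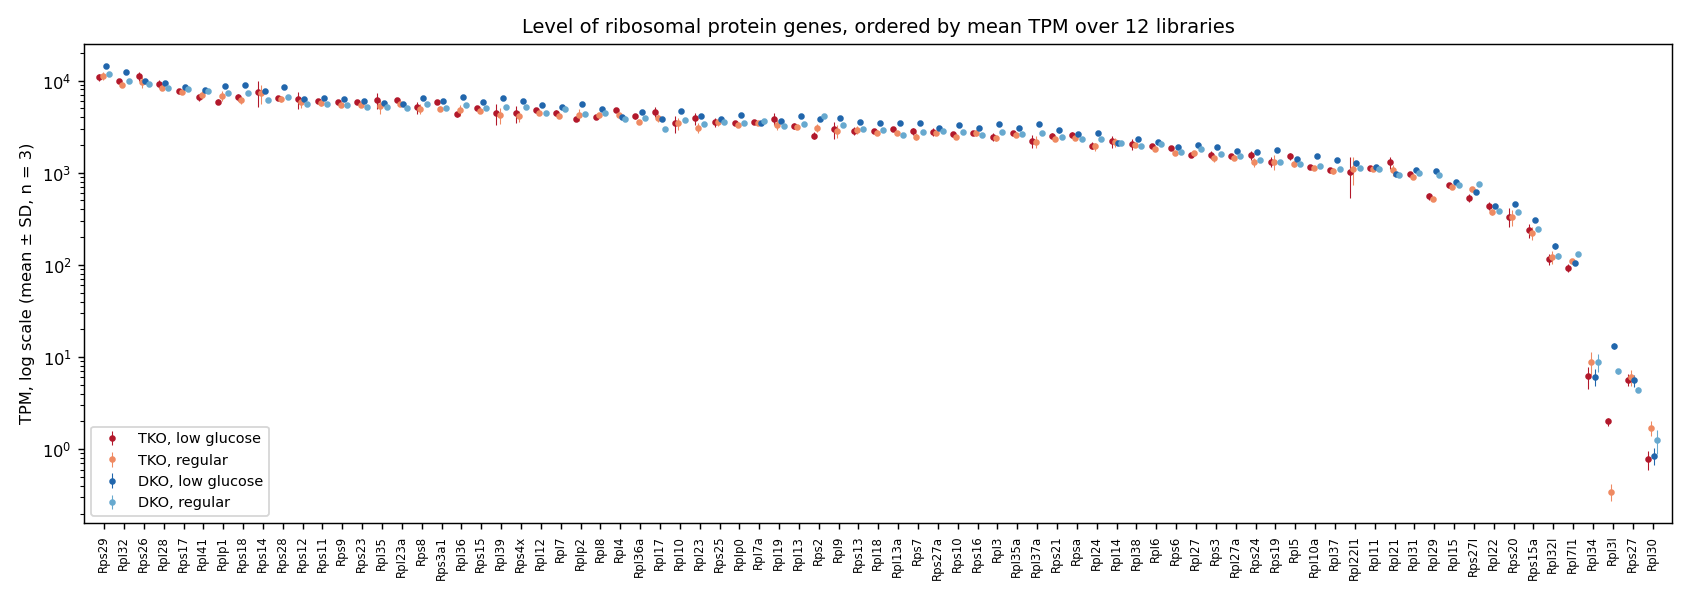
Level of the genes in TPM (log scale, mean ± SD, n = 3), ordered by the mean over 12 libraries, with 1 colour per group. Rpl34, Rpl3l, Rps27 and Rpl30 lie at 7.5 TPM or less, and the other genes lie between 110 and 12057 TPM.

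Low glucose was compared with regular medium within each line. In DKO cells, 46 of the 81 genes rose and 3 fell (edgeR quasi-likelihood test, Benjamini-Hochberg adjusted p under 0.05 over 11988 genes). Among all genes tested, 31.6% rose and 31.1% fell (62.7% either way), against 56.8% and 3.7% of the members. The median log2 change of the members was 0.19, against 0.01 for all genes tested. The count of rises ran from 31 without DKO replicate 3 in low glucose to 61 on library totals and 64 on the compared groups alone. On library totals the median was 0.29, against 0.11 for all genes. Changes were small per gene. Of the small subunit genes 20 of 32 rose, of the large subunit genes 23 of 46, and of the stalk genes 3 of 3.

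Rpl13a (chr7:45125563-45128745), known also for a role in translational silencing of inflammatory mRNAs, had 1440, 1493 and 1486 CPM in DKO cells in low glucose, against 1145, 1089 and 1105 CPM in regular medium. The groups were well apart, and the log2 change was 0.40 ± 0.05 (SE, adjusted p = 7.5e-06, edgeR).

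Rps28 (chr17:33823036-33824562), a small subunit protein near the mRNA exit, had 534, 551 and 572 CPM in DKO cells in low glucose and 453, 420 and 433 CPM in regular medium. Every low-glucose library was above every other, and the log2 change was 0.34 ± 0.055 (adjusted p = 8.14e-05, edgeR). Rps19 (chr7:24884592-24889811), mutated in Diamond-Blackfan anaemia in humans, had 668, 749 and 708 CPM against 527, 529 and 545 CPM. Its groups did not overlap either, at a log2 change of 0.41 ± 0.12 (adjusted p = 0.0067, edgeR).

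The genes that fell in DKO cells were Rpl7l1, Rps27l and Rpl7a. Rpl7l1 (chr17:46773907-46782656), a relative of Rpl7 that acts in assembly of the large subunit, had 140, 137 and 144 CPM in low glucose and 184, 175 and 181 CPM in regular medium, a log2 change of -0.36 ± 0.054 (adjusted p = 4.77e-05, edgeR). Rps27l (chr9:66944624-66949522), a relative of Rps27 and a p53 target in human cells, had 139, 144 and 144 CPM in low glucose and 177, 183 and 181 CPM in regular medium. Its groups were apart, at a log2 change of -0.34 ± 0.07 (adjusted p = 0.000674, edgeR). The call of Rpl7a, at a log2 change of -0.13, was lost when any of 5 single libraries was left out (highest adjusted p = 0.091, edgeR).

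In TKO cells fewer members responded: 12 of the 81 rose and 5 fell, or 14.8% and 6.17%, while 22% of all genes tested rose and 17.9% fell (39.9% either way). The median log2 change of the members was 0.04, against 0.01 for all genes. Rises were called for 3 small subunit genes and 9 large subunit genes. The counts changed with single libraries left out, also of groups not compared. Among TKO libraries in regular medium, 5 genes rose without replicate 1, 7 rose and 3 fell without replicate 3, and 11 fell without replicate 2. With TKO replicate 2 left out in both media 16 rose and 13 fell. Without TKO replicate 3 in low glucose 18 rose. Without any single DKO replicate in regular medium, or DKO replicate 3 in low glucose, 8 rose. Without DKO replicate 1 in low glucose 15 rose. Fitted on the 2 TKO groups alone, 1 gene rose and 3 fell.

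In 10 genes the rise was called in both lines, among them Rpl23, Rpl3l, Rps24, Rpl5, Rps6, Rpl22 and Rps3a1. The share of all genes that rose in both lines was not counted. Of the 10, Rpl23, Rps24 and Rpl22 lost the TKO call without any of 3 to 7 single libraries. These 3 genes lost the DKO call without any of 3 to 6. Rpl5 (chr5:107900508-107909005), which carries the 5S ribosomal RNA and can bind Mdm2, had 1343, 1593 and 1381 CPM in TKO cells in low glucose and 1156, 1297 and 1197 CPM in regular medium. The groups were apart, at a log2 change of 0.24 ± 0.061 in TKO cells (adjusted p = 0.00631, edgeR) and 0.16 ± 0.061 in DKO cells (adjusted p = 0.0345, edgeR). The DKO call was lost when any of 6 single libraries was left out, with adjusted p up to 0.111. Its partner in the 5S particle, Rpl11, was not called in any comparison, with a log2 change of 0.01 in both lines (95% interval -0.08 to 0.10 in each).

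Rps6 (chr4:86854099-86857367), the small subunit protein phosphorylated by S6 kinase, had 1102, 1175 and 1096 CPM in TKO cells in low glucose, against 1011, 1023 and 1011 CPM in regular medium. In DKO cells it had 1162, 1247 and 1255 CPM in low glucose, against 1074, 1075 and 1089 CPM in regular medium. Both lines showed a rise with no overlap, at log2 changes of 0.15 ± 0.042 and 0.18 ± 0.042 (adjusted p = 0.0134 in TKO and 0.00214 in DKO, edgeR). Rps3a1, another small subunit protein, rose by similar amounts, 0.21 ± 0.052 on the log2 scale in TKO and 0.23 ± 0.052 in DKO cells (adjusted p = 0.00484 and 0.00141, edgeR).

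Rpl7l1 and Rps27l fell in both lines. In TKO cells Rpl7l1 had 119, 108 and 128 CPM in low glucose, against 141, 137 and 148 CPM in regular medium, a log2 change of -0.26 ± 0.055 (adjusted p = 0.0022, edgeR). Rps27l had 105, 121 and 131 CPM, against 153, 137 and 161 CPM, a log2 change of -0.34 ± 0.071 (adjusted p = 0.00194, edgeR). Neither gene's libraries overlapped between media. Of the genes they resemble, Rpl7 was not called in either line (log2 changes 0.09 in TKO and 0.04 in DKO), and Rps27 had 20 to 47 counts per library.

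**Figure D3:**
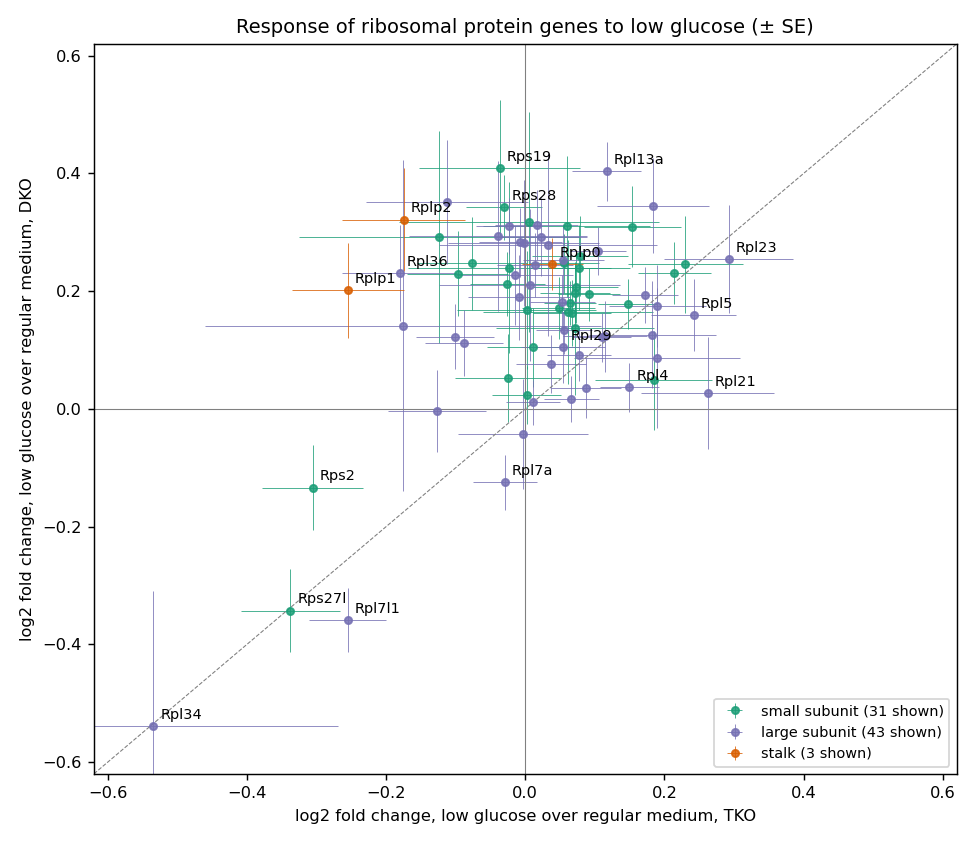
Log2 fold change of low glucose over regular medium in TKO cells (horizontal) and DKO cells (vertical), with SE bars. The points are genes, coloured by class (Rpl3l and Rpl30 lie outside the axes). Most points lie above the dashed line of equal change, and Rpl7l1 and Rps27l lie near it at the lower left.

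The difference between these responses was tested as the interaction, which is the log2 change in TKO cells minus that in DKO cells. It was negative for 65 of the 81 genes, which share their libraries and so are not 65 separate results. A lower response in TKO cells was called for 18 genes and a higher one for Rpl3l alone (edgeR, adjusted p under 0.05), or 22.2% and 1.23% of the members. Among all genes tested 12.1% were called lower and 17.6% higher (29.6% either way). The median was -0.16, against 0.03 over all genes. Of the 46 genes that rose in DKO cells, 17 were among the 18.

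The count depended on the libraries used. It was 33 without TKO replicate 2 in regular medium and 43 with that replicate left out in both media. It was 5 without DKO replicate 2 in low glucose. It was 8 without DKO replicate 2 or 3 in regular medium, DKO replicate 3 in low glucose or TKO replicate 3 in regular medium. It was 9 without DKO replicate 1 in low glucose or TKO replicate 1 in regular medium. Over all genes, 1447 were called lower in the main fit, and 1646 and 1892 in the runs with 33 and 43 members. They numbered 928 in the run with 5 members and 968 to 1156 in those with 8 or 9. These fell by a smaller part than the members' counts, so the members' excess over all genes depended on the libraries used. The median interaction of the members was negative under every alternative run. It ran from -0.23 without the filter on low counts to -0.11 without DKO replicate 2 in low glucose or TKO replicate 3 in regular medium. Across 80 members with an annotated transcript, the interaction correlated with transcript length at Spearman's rho 0.32 and with GC content at -0.28. Across 11174 tested genes these were 0.04 and -0.24. The genes share their libraries, and the part of length and GC content in the difference was not tested.

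The 3 stalk genes were all called. Rplp2 (chr7:141447651-141451359) had 367, 351 and 382 CPM in TKO cells in low glucose, against 458, 339 and 444 CPM in regular medium. In DKO cells it had 524, 586 and 553 CPM in low glucose, against 460, 425 and 446 CPM in regular medium. The media overlapped in TKO cells and were apart in DKO cells, and the interaction was -0.50 ± 0.12 (SE, adjusted p = 0.00821, edgeR).

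Rplp1 (chr9:61913283-61914510) had 623, 571 and 600 CPM in TKO cells in low glucose, against 779, 598 and 765 CPM in regular medium. In DKO cells it had 870, 956 and 936 CPM in low glucose, against 830, 775 and 798 CPM in regular medium. Of all members only Rplp1 was called in opposite directions in the 2 lines, with log2 changes of -0.26 ± 0.081 in TKO and 0.20 ± 0.08 in DKO cells (adjusted p = 0.0218 and 0.0415, edgeR). TKO replicate 2 in regular medium was the library that overlapped with low glucose. The TKO call was lost without TKO replicate 1 or 3 in regular medium and the DKO call without any of 6 libraries, while the interaction of -0.46 ± 0.11 (adjusted p = 0.00813, edgeR) kept its call without any single library. Rplp0 (chr5:115559467-115563729), the stalk's base, had an interaction of -0.21 ± 0.063 (adjusted p = 0.0234, edgeR), lost without any of 6 libraries.

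Rps28 had 398, 407 and 381 CPM in TKO cells in low glucose and 423, 367 and 420 CPM in regular medium. These overlapped, in contrast to its DKO values above, and the interaction was -0.37 ± 0.077 (adjusted p = 0.00248, edgeR). Rpl10a (chr17:28328471-28331033), of the L1 arm of the large subunit, had 479, 476 and 513 CPM in TKO cells in low glucose and 507, 464 and 521 CPM in regular medium. In DKO cells Rpl10a had 658, 693 and 670 CPM in low glucose and 546, 535 and 548 CPM in regular medium. Its TKO media overlapped and its DKO media did not, and its interaction of -0.33 ± 0.067 had the lowest adjusted p among the members called lower (0.00195, edgeR). Rpl10a was named after its values were seen.

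Rpl36 (chr17:56610094-56614246) had 294, 275 and 307 CPM in TKO cells in low glucose, against 357, 274 and 362 CPM in regular medium. In DKO cells this large subunit gene had 448, 482 and 467 CPM in low glucose, against 406, 397 and 388 CPM in regular medium. The media overlapped in TKO cells alone, and the interaction was -0.41 ± 0.12 (adjusted p = 0.0165, edgeR; 0.0626 without DKO replicate 2 in low glucose). Other genes with a called lower response included Rpl13a, Rpl3, Rpl32, Rps29 and the Rpl32-like gene Rpl32l, at -0.46 to -0.16. Rps19, with an interaction of -0.45 ± 0.16, missed the threshold (adjusted p = 0.0541, edgeR).

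**Figure D4:**
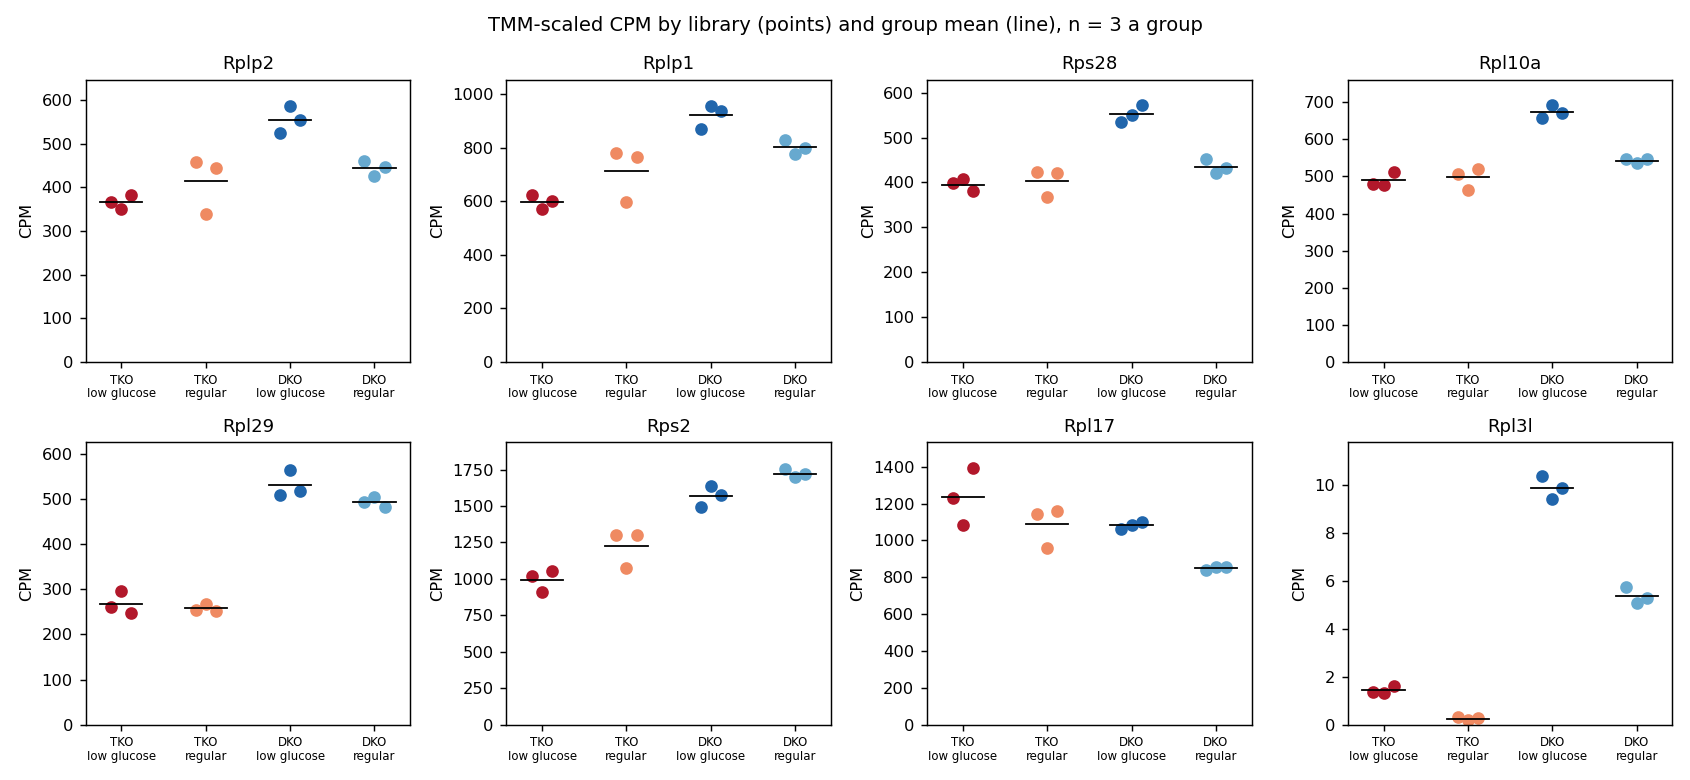
TMM-scaled CPM in each library for 8 genes, with the group mean as a line. Rplp2, Rplp1, Rps28 and Rpl10a are highest in DKO cells in low glucose, Rpl29 and Rps2 are lower in TKO cells in both media, Rpl17 is highest in TKO cells in low glucose, and Rpl3l is nearly absent from TKO cells in regular medium.

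The lines were compared in each medium. These comparisons use the same libraries as the responses above. In low glucose, 57 of the 81 genes were lower in TKO than in DKO cells and 3 were higher (edgeR, adjusted p under 0.05), or 70.4% and 3.7%. Among all genes tested 37.4% were lower and 37.2% higher (74.6% either way). The median log2 difference of the members was -0.27, against 0 over all genes. Of the small subunit genes 24 of 32 were lower, of the large subunit genes 30 of 46, and of the stalk genes 3 of 3.

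In regular medium 30 genes were lower in TKO cells, or 37% of the members, close to the 33.4% of all genes tested. Higher calls were made for 1 member (1.23%), against 28.3% of all genes (61.7% were called either way), and the median log2 difference was -0.14, against -0.01. Over the alternatives the count of lower calls ran from 22 without the filter on low counts to 43 with TKO replicate 2 left out in both media. The median was -0.08 without the filter, -0.09 with RLE factors or DESeq2 and -0.11 without TKO replicate 2 in both media. Of the 30 genes, 29 were also lower in low glucose, and the remaining one was Rpl7a, whose call was lost without any of 5 libraries. A further 28 were called lower in low glucose and not in regular medium. A call in 1 medium alone is no test of a difference between media, for which the interaction was called lower in 18 members. The shares of all genes with these joint calls were not counted. In the authors' deposited tables, 55 members were lower and 3 higher in TKO cells in low glucose, and 35 were lower and 3 higher in regular medium. Of all genes listed in the authors' deposited tables, 4176 of 16206 were lower and 4387 higher in low glucose, and 3758 of 15824 were lower and 3680 higher in regular medium.

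Rpl29 (chr9:106428889-106431568), a large subunit protein that also binds heparin and that mice can live without, differed most among well-expressed members. It had 260, 296 and 248 CPM in TKO cells and 510, 564 and 518 CPM in DKO cells in low glucose. In regular medium it had 255, 267 and 252 CPM in TKO cells and 495, 504 and 482 CPM in DKO cells. The lines were far apart in both media, and Rpl29 was 1.98-fold lower in low glucose (log2 -0.99 ± 0.06, adjusted p = 2.11e-09, edgeR) and 1.91-fold lower in regular medium (log2 -0.94 ± 0.061, adjusted p = 5.19e-09, edgeR). It was not called for medium in either line, at log2 changes of 0.05 in TKO and 0.10 in DKO cells.

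Rps2 (chr17:24718121-24721927), a small subunit protein at the mRNA entry channel, had 1017, 907 and 1051 CPM in TKO cells and 1496, 1639 and 1574 CPM in DKO cells in low glucose. In regular medium it had 1301, 1076 and 1300 CPM in TKO cells, against 1751, 1700 and 1717 CPM in DKO cells. No TKO library reached a DKO library, with log2 differences of -0.66 ± 0.072 in low glucose and -0.49 ± 0.072 in regular medium (adjusted p = 1.25e-06 and 3.72e-05, edgeR). Rps2 also fell in low glucose in TKO cells, by 0.31 ± 0.072 on the log2 scale (adjusted p = 0.00412, edgeR), while its DKO change of -0.13 was not called (adjusted p = 0.122).

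Rpl3l (chr17:24727826-24736143), a relative of Rpl3 that in adult mammals is known from skeletal and heart muscle, lies close to Rps2 on the chromosome. It had 56, 30 and 69 counts in TKO cells in low glucose and 9, 5 and 8 counts in TKO cells in regular medium. It had 512, 347 and 459 counts in DKO cells in low glucose and 255, 246 and 288 counts in DKO cells in regular medium. No 2 groups overlapped on the CPM scale, where the means were 1.44, 0.254, 9.9 and 5.36 in the same order. Rpl3l was 6.81-fold lower in TKO cells in low glucose and 20.6-fold lower in regular medium (adjusted p = 4.96e-12 and 1.14e-11, edgeR). It rose in low glucose by 2.49 ± 0.22 on the log2 scale in TKO cells and by 0.89 ± 0.074 in DKO cells, with an interaction of 1.60 ± 0.25 (adjusted p = 0.000326, edgeR). Its counts are a small part of those of Rpl3, which had 1470, 1320 and 1563 CPM in TKO cells and 2049, 2148 and 2143 CPM in DKO cells in low glucose.

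Rps4x, an X-linked small subunit protein, and Rpl37a of the large subunit were also lower in TKO cells in both media, at log2 differences of -0.50 and -0.66 in low glucose and -0.40 and -0.37 in regular medium (adjusted p = 0.00193, 7.36e-05, 0.0111 and 0.00802, edgeR). Rpl36, Rplp1 and Rplp2 were also lower in TKO cells in low glucose, at -0.67 ± 0.083, -0.62 ± 0.081 and -0.60 ± 0.088 (adjusted p = 4.22e-06, 7.32e-06 and 2.59e-05, edgeR). In regular medium the differences for Rplp1 and Rplp2, of -0.17 and -0.10, were not called.

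Against the majority, Rpl17 was called higher in TKO cells in both media, and Rpl21 and Rpl4 in low glucose alone. In regular medium Rpl21 and Rpl4 differed by 0.12 and 0.06 on the log2 scale (adjusted p = 0.307 and 0.209, edgeR). Rpl17 (chr18:74998978-75003381), a large subunit protein at the peptide exit tunnel, had 1231, 1086 and 1391 CPM in TKO cells and 1061, 1085 and 1100 CPM in DKO cells in low glucose. In regular medium it had 1143, 961 and 1162 CPM in TKO cells and 841, 858 and 857 CPM in DKO cells. The lines overlapped in low glucose (log2 0.19 ± 0.081, adjusted p = 0.044, edgeR; lost without any of 6 libraries) and were apart in regular medium (log2 0.35 ± 0.081, adjusted p = 0.0016, edgeR).

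Rps14, the other member on chromosome 18, had 1288, 888 and 1688 CPM in TKO cells and 1321, 1430 and 1435 CPM in DKO cells in low glucose. In regular medium Rps14 had 1479, 935 and 1439 CPM in TKO cells and 1109, 1126 and 1124 CPM in DKO cells. TKO replicate 2 was lowest in both media, the lines overlapped in both, and Rps14 was not called. Rpl21 (chr5:146832890-146837032) had 1032, 1326 and 1004 CPM in TKO cells and 853, 874 and 907 CPM in DKO cells in low glucose. Every TKO library was higher (log2 0.35 ± 0.096, adjusted p = 0.00428, edgeR), and TKO replicate 2 was the highest. Rpl4 (chr9:64173387-64178562) was higher in TKO cells in low glucose by 0.18 ± 0.042 on the log2 scale (adjusted p = 0.00175, edgeR).

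**Figure D5:**
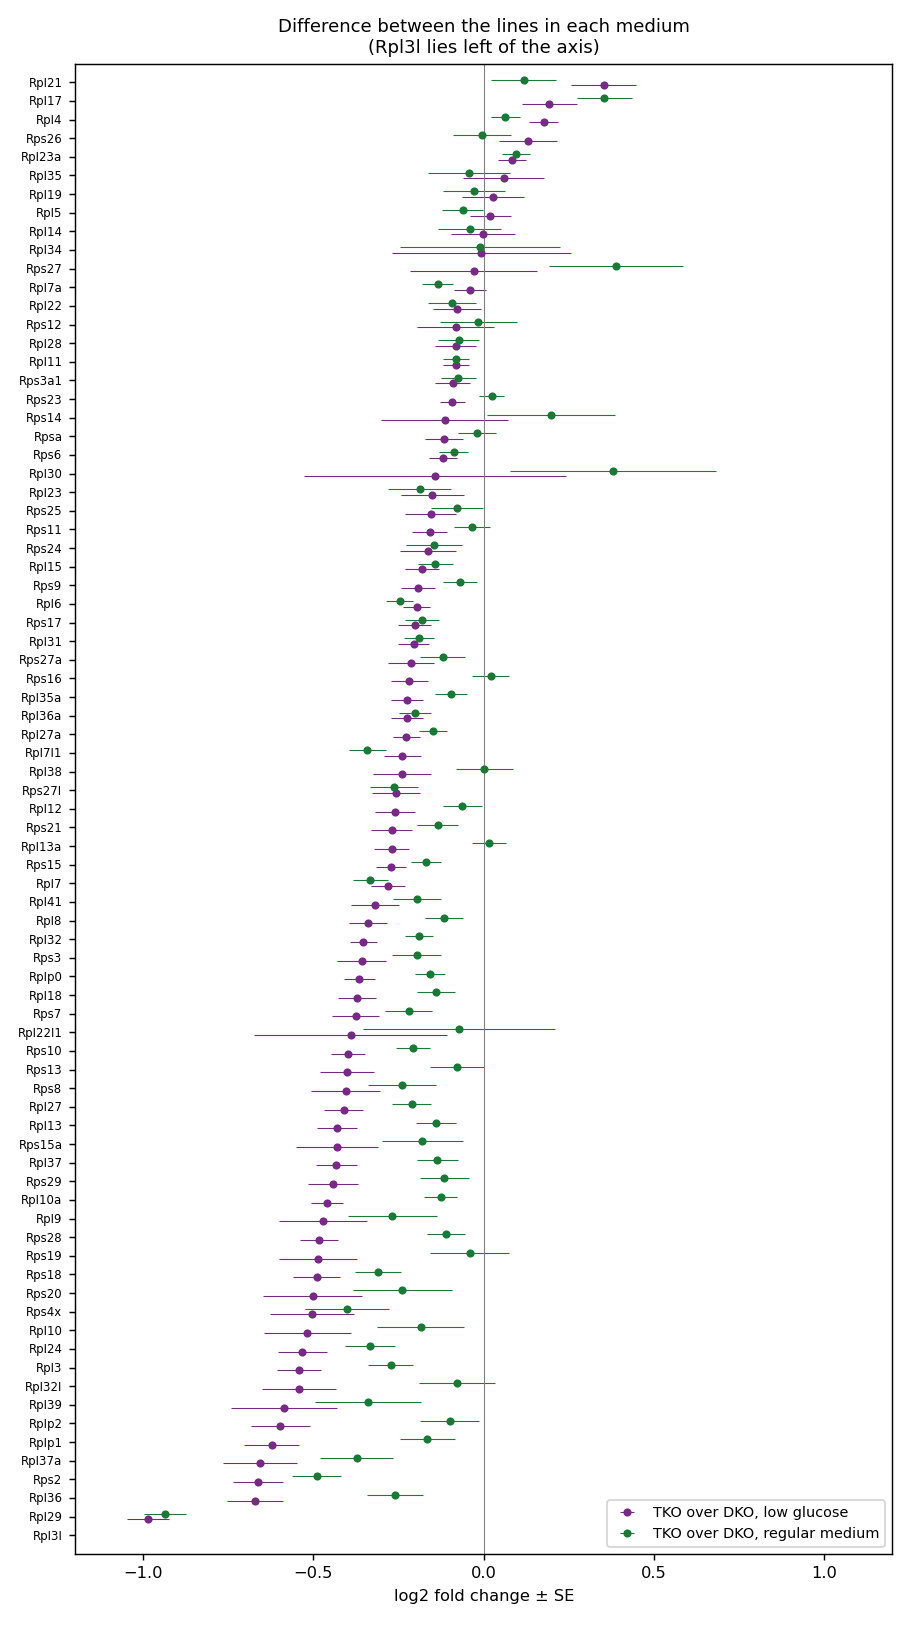
Log2 fold change of TKO over DKO cells (± SE) for the genes in low glucose (purple) and regular medium (green), ordered by the value in low glucose. Most purple points lie left of 0 and left of their green partner, Rpl29 lies near -0.99 and -0.94, and Rpl3l lies outside the axis.

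Of a list of 7 relatives of standard proteins named with an added l, 4 were tested: Rpl3l, Rpl7l1, Rps27l and Rpl22l1. All 4 had negative log2 differences in TKO against DKO cells in both media, and 3 of them were called lower in each. For medium, 1 of the 4 rose and 2 fell in each line. Rpl32l was not in that list and differed from it. It was lower in TKO cells in low glucose (log2 -0.54) and not called in regular medium (-0.08). For medium Rpl32l rose in DKO cells (0.35, a call lost without either of 2 libraries) and was not called in TKO cells (-0.11). Among standard proteins, Rpl22, at 530 ± 63.4 CPM in TKO cells in low glucose, rose in both lines by 0.19 ± 0.07 and 0.18 ± 0.069 on the log2 scale (adjusted p = 0.0434 in TKO and 0.0403 in DKO, edgeR). Its TKO libraries overlapped between media, and the TKO call was lost without any of 7 single libraries and the DKO call without any of 6. Rpl22l1 varied from 82.3 to 225 CPM among TKO libraries in low glucose and was called in no comparison. Rpl39 and Rpl10, both X-linked large subunit genes, were lower in TKO cells in low glucose, at log2 differences of -0.59 ± 0.16 and -0.52 ± 0.13 (adjusted p = 0.00366 and 0.00217, edgeR). In regular medium neither was called, at -0.34 for Rpl39 and -0.19 for Rpl10 (adjusted p = 0.0738 and 0.226, edgeR).

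Fau and Rack1 encode ribosomal proteins under other names. Both rose in low glucose in DKO cells and neither was called in TKO cells. The interaction of Rack1, -0.35 ± 0.14, was not called (adjusted p = 0.0746, edgeR). Fau, a fusion of a ubiquitin-like protein with a small subunit protein, had 262 ± 16 CPM in TKO cells in low glucose, against 245 ± 8.6 in regular medium. In DKO cells Fau had 296 ± 8.7 CPM in low glucose, against 213 ± 11 in regular medium (SD, n = 3), and the interaction was -0.38 ± 0.073 (adjusted p = 0.00146, edgeR).

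Of all genes tested, 17.9% fell and 22% rose in low glucose in TKO cells, and 31.1% fell and 31.6% rose in DKO cells. Of the 78 genes of mitochondrial ribosomal proteins, 51 fell and none rose in TKO cells (median log2 -0.21), and 63 fell and 1 rose in DKO cells (median -0.34). Their interaction was called higher in 18 of 78, not far from the 17.6% of all genes, and lower in none, against 12.1%. Of 14 chaperones, importers and exporters of ribosomal proteins tested, 10 fell in TKO cells and 11 in DKO cells in low glucose, and none rose in either. Among them was Ipo5, which imports ribosomal proteins into the nucleus (DKO log2 -0.80 ± 0.034, adjusted p = 1.87e-10, edgeR). Of 10 cap- and tail-binding initiation factors, 6 fell in TKO cells and 7 in DKO cells, and none rose in either.

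Of the 8 elongation factors and associated genes, 4 rose in DKO cells in low glucose and 4 fell. Eef2, the translocase of the elongating ribosome, rose by 0.45 ± 0.047 on the log2 scale (adjusted p = 1.32e-06, edgeR), and Eif5a fell by 0.73 ± 0.045 (adjusted p = 7.06e-09, edgeR). Among 20 known regulators of ribosomal protein mRNA, 5 fell and 1 rose in TKO cells, and 12 fell and 3 rose in DKO cells. In DKO cells Larp1 fell by 0.43 ± 0.037 (adjusted p = 2.05e-07, edgeR), and Eif4ebp1, the mTOR target that restrains cap-dependent translation, rose by 1.04 ± 0.07 (adjusted p = 1.58e-08, edgeR). Myc, a growth regulator, had 328 ± 67 CPM in TKO cells in low glucose, against 332 ± 56 in regular medium. In DKO cells Myc had 209 ± 2.7 CPM in low glucose, against 325 ± 7 in regular medium (SD, n = 3), and the interaction was 0.62 ± 0.17 (adjusted p = 0.0168, edgeR).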

How the data were processed

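Per the submitters' processing notes, the authors used STAR 2.7.3a, the mm10 build and DESeq2 1.22.1. The counting tool, its strand setting and its treatment of reads shared by gene copies are not given in the sources used here. Gene counts were deposited by the authors as whole numbers without normalization. The authors' deposited TPM table is scaled by length and to 1000000 per library. Per the file headers, the authors' deposited comparison tables hold log2 fold changes with SEs, p-values and, as a score, a normalized mean and a test statistic.

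Counts were tested with edgeR 4.0.16 in R 4.3.3 (filterByExpr, count minimum 10; TMM; 1 quasi-likelihood fit with a mean for each of 4 groups, 12 libraries, 8 residual degrees of freedom; 11988 genes). Calls needed an adjusted p (Benjamini-Hochberg) under 0.05. Each SE was derived from the F statistic. The script was tested on simulated data. Transcript length and GC content come from GENCODE for GRCm38 (mm10), and coordinates and promoters from RefSeq. Alternatives were RLE factors, library totals, DESeq2 1.42.0, no filter, a replicate block, the compared groups alone, each library left out and, chosen after seeing the data, TKO replicate 2 left out in both media.

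Same-numbered libraries correlated at 0.07, 0.33 and 0.23 between the TKO media, and the numbers were not taken as pairs. The members and lists were chosen with earlier results of these data known. Named members are the 5 largest called changes each way per comparison (mean of at least 5 CPM), members with relatives, the stalk, Rpl5, Rpl11, Rps6, Rpsa, Rps27a, the members on chromosome 18, and the 3 highest and lowest in TPM. No 2 libraries held identical counts. A few genes stay in every fit and count but are not reported here by name or drawn.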

Additional observations from a re-analysis of the deposited data

Results flagged for a closer look

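In 11 of the named genes the response to low glucose differed between the lines by a test of that difference, the interaction in the edgeR quasi-likelihood fit (adjusted p under 0.05). A called interaction was among the rules by which genes were named, so this count does not measure how common such differences were. An interaction was called in either direction for 23.5% of the 81 members and for 29.6% of all genes tested. On the log2 scale, as the TKO minus the DKO response, the difference was -0.50 for Rplp2, -0.46 for Rplp1, -0.46 for Rpl32l, -0.41 for Rpl36, -0.37 for Rps28, -0.33 for Rps29, -0.29 for Rpl13a, -0.27 for Rpl3, -0.21 for Rplp0 and -0.16 for Rpl32. Rpl3l went the other way, at 1.60. The calls of Rplp2, Rplp1, Rps28, Rpl13a and Rpl3l were kept without any single library. The call of Rpl36 was lost without DKO replicate 2 in low glucose (adjusted p = 0.0626). The other calls were lost without any of several libraries, up to 10 for Rpl3.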

How the results depend on the processing

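No named result changed direction under any alternative run, and 60 of 94 called results on named genes kept their call in all of them. In regular medium 1 gene was called higher in TKO cells, against 3 with RLE factors, 2 on library totals, 4 with DESeq2, 3 without the filter, 2 on the compared groups alone and 4 without TKO replicate 2 in both media. It was 1 to 2 with single libraries left out, with 2 without DKO replicate 1 or 2 in low glucose, TKO replicate 3 in regular medium, or TKO replicate 2 or 3 in low glucose. Rises in TKO cells in low glucose numbered 12, against 19 on library totals, 1 on the compared groups alone and 5 to 18 with single libraries left out. Falls numbered 5, against 3 on the compared groups alone, 13 without TKO replicate 2 in both media and 3 to 11. Falls in DKO cells numbered 3, against 5 under both of these and 2 to 5, with 5 without TKO replicate 2 in regular medium. Lower interactions numbered 18, against 29 without the filter, 43 without TKO replicate 2 in both media and 5 to 33. Over all genes they numbered 1447, against 1991, 1892 and 928 to 1646 in the same order. Higher interactions of members numbered 1, against 3 without TKO replicate 2 in both media and 1 to 2, with 2 without TKO replicate 2 in regular medium.

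Without Rn45s in the total, the members' share was 7.04% in TKO and 8.52% in DKO cells in low glucose and 7.08% in DKO cells in regular medium. As a share of TPM it was 27.4% in TKO cells in low glucose, 26% in TKO cells in regular medium, 31.7% in DKO cells in low glucose and 27.3% in DKO cells in regular medium. On library totals, 62.7% of all calls in DKO cells in low glucose were rises, against 50.4% with TMM, and for TKO cells 65.1% against 55.1%. For the interaction, 45.6% of calls were then higher, against 59.3%. With a replicate block, 36 genes were lower in TKO cells in regular medium and 59 in low glucose, 47 rose in DKO cells and 12 in TKO cells in low glucose, and 19 interactions were lower.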
